A study of Mus musculus with 2 samples.

Results

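Rsad2 and Cmpk2 are a pair of neighbouring mouse genes, and their transcripts were followed cell by cell in 2 single-cell RNA sequencing libraries of bone marrow haematopoietic stem cells (HSCs). The genes were picked by their symbols, 2 of the 31053 genes counted. Each library stands for 1 group of wild-type C57BL/6J mice: a naive library from untreated mice, and a Listeria library from mice sampled 6 weeks after challenge with the bacterium Listeria monocytogenes. Both groups are given an age of 6 to 8 weeks, without saying whether that was the age at challenge or when marrow was taken. The names the submitters gave the deposited files call the naive library WT and the Listeria library KO, while the labels give wild type for both. The labels were followed, and a difference of genotype between the libraries cannot be told apart from the challenge if those names hold. The labels do not say how many mice were pooled or which surface markers were used to purify the cells. Rsad2 was chosen with its difference between these libraries already known, so that difference is a description of 2 libraries and supports nothing further.

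Rsad2 encodes viperin, an enzyme of the radical SAM family that turns the nucleotide CTP into ddhCTP, which stops the RNA polymerases of some viruses. Cmpk2 encodes a nucleotide kinase of mitochondria that phosphorylates CMP and UMP and so feeds the pool that viperin draws on. Both are classical interferon-stimulated genes, in many tissues induced through a promoter element called the ISRE that interferon-activated factors bind. Isg15, a ubiquitin-like protein, and the Ifit genes, whose proteins bind viral RNA, are usually induced with them. In stem cells some interferon-stimulated genes are known to be on without infection.

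In the GENCODE vM21 annotation of GRCm38, Rsad2 (ENSMUSG00000020641) lies on the minus strand at chr12:26442746-26456452, with up to 7 exons in 3 transcripts. Cmpk2 (ENSMUSG00000020638) lies on the plus strand at chr12:26469204-26479837, with up to 5 exons in 4 transcripts. The genes point away from each other, their start sites are 12752 bases apart and their annotated bodies do not overlap, so they share no exon. Of the neighbours, the antisense gene 4930549C15Rik had 0 UMIs (unique molecular identifiers, each marking 1 captured transcript) in naive and 1 in Listeria cells, and the lincRNAs 1700020D12Rik and Gm47847 had 0 in both libraries. Mir6538, Gm47799 and Gm46344 were not analysed here.

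The stretches of 250 bases before both start sites are shown because the results turn on how far these neighbours part. They are the RefSeq sequences of GRCm38.p6, read 5′ to 3′ on the gene's own strand, at chr12:26456453-26456702 (minus strand) for Rsad2 and chr12:26468965-26469214 (plus strand) for Cmpk2. Capitals mark a match to the ISRE letters, GAAA followed by any 2 bases and GAAA again, or TTTC, any 2 bases and TTTC where the match is on the other strand.
Rsad2: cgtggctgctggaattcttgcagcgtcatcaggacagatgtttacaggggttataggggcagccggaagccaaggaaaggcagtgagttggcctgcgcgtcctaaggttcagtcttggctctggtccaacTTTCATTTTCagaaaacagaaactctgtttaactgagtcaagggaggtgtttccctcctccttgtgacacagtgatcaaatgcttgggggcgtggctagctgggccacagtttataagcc
Cmpk2: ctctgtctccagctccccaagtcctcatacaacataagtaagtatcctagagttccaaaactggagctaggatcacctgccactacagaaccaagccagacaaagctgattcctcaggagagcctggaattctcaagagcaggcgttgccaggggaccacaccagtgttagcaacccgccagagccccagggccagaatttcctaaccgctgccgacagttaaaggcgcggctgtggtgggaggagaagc

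RefSeq places the Cmpk2 start at 26469215, a few bases inside the GENCODE gene, so the last bases of its window lie in the gene as GENCODE draws it. The Rsad2 window held 1 match, 120 bases before the start site, and the Cmpk2 window held 0. Of 27025 genes with such a window in the RefSeq table, 936 (3.46%) had at least 1 match. Windows of 30 bases around the first match are given for partner genes described below, Isg15 at chr4:156200877-156200906 (minus strand), Ifit1 at chr19:34640775-34640804 (plus), Ifit3 at chr19:34583363-34583392 (plus) and Cxcl10 at chr5:92349083-92349112 (minus). Capitals again mark matches; they overlap in Isg15, and the last capital of Ifit1 opens its next match.
Isg15: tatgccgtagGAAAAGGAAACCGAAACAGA
Ifit1: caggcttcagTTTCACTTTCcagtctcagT
Ifit3: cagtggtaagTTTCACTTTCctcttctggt
Cxcl10: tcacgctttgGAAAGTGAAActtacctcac

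Isg15 had 3 matches, Ifit1, Ifit3 and Ifit3b had 2 each and Cxcl10 had 1, while Ifit2, Oasl1, Ifih1 and Irf7 had 0. The 30 bases of Ifit3b repeat those of Ifit3 letter for letter, and reads of these close copies may not be told apart. A match is a description of the letters, not of binding, and a window without one says nothing of elements farther away.

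The cells kept were barcodes with at least 2500 UMIs, at least 500 genes and at most 10% of UMIs from mitochondrial genes. They numbered 6375 for naive and 4839 for Listeria, with a median of 6972 and 7239 UMIs. The libraries shared 14 kept barcodes, which held 15 naive and 0 Listeria UMIs of Rsad2. No library has a replicate, so no p-value is given, and intervals in brackets are exact 95% intervals that cover counting error only. Clusters of cells were built without Rsad2, Cmpk2 and the interferon-response genes, and named only from marker lists. At the UMI limit little turned on the choice: 4 of 73 naive barcodes just below it (from 2300 UMIs) had an Rsad2 UMI, as did 5 of 74 just above. In the Listeria library the same counts were 2 of 23 and 1 of 37.

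Rsad2 was a gene of few cells with many transcripts. The naive library held 1760 Rsad2 UMIs in 668 cells (10.5% of cells, 9.74 to 11.3%), and the Listeria library 3524 in 580 cells (11.99%, 11.1 to 12.9%). After each cell was thinned to 2500 UMIs, 4.93% of naive and 6.03% of Listeria cells had 1. The share of positive cells was thus near in both libraries, while the UMIs per positive cell were not, at 2.63 in naive and 6.08 in Listeria cells.

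Most positive cells had 1 UMI, 452 naive and 347 Listeria cells. There were 124 naive and 121 Listeria cells with 2 to 4 UMIs, and 54 and 37 with 5 to 9. At 10 or more UMIs stood 38 naive cells (0.596%, 0.422 to 0.817%) and 75 Listeria cells (1.55%, 1.22 to 1.94%). These cells, called high cells from here on, held 37.4% of all naive and 74.5% of all Listeria Rsad2 UMIs, with a median of 13 and 22 and a highest value of 62 and 166. At least 50% of the gene's UMIs came from 69 naive cells with 6 or more, and from 25 Listeria cells with 30 or more. The libraries therefore differed at the top of the distribution and were alike below it, as the rank plot shows. High naive cells were deeper than the rest, with a median total of 8921 UMIs against 6972 over the library, whereas high Listeria cells had 7209 against 7239.

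**Figure D1:**
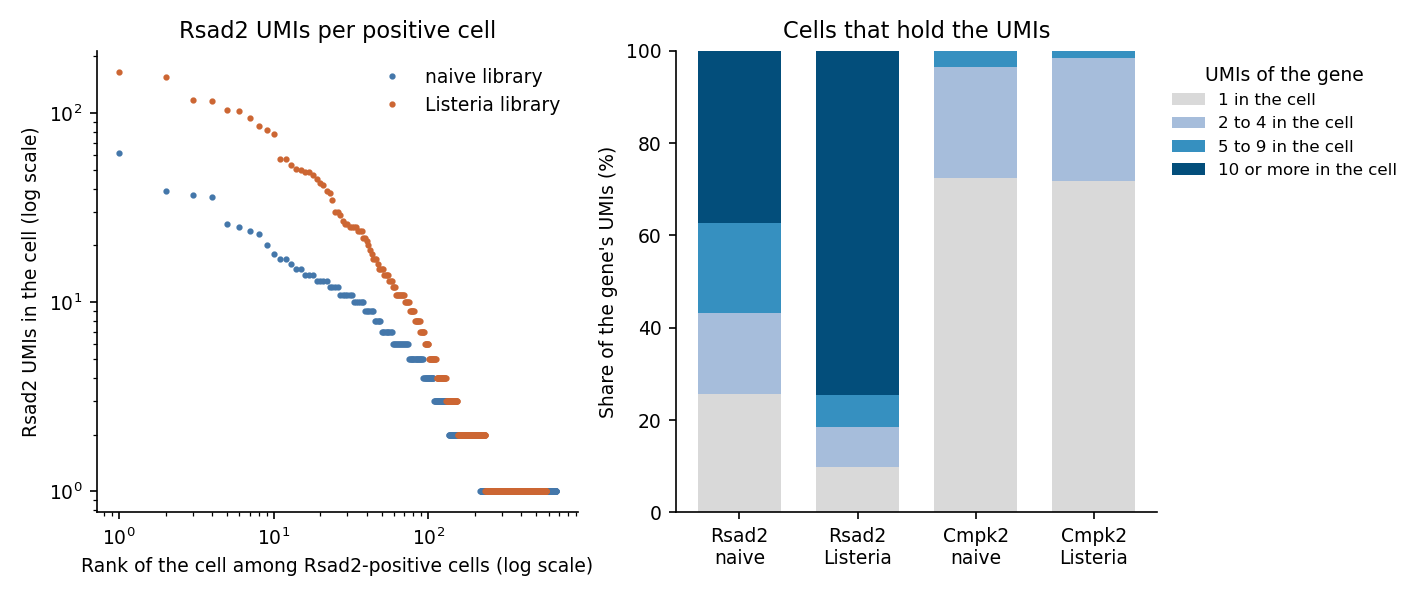
Left, Rsad2 UMIs of each positive cell (log scale) against its rank in its library (log scale), 1 point per cell; the 10 highest Listeria cells sit above the highest naive cell, which has 62 UMIs. Right, stacked bars of the share of each gene's UMIs that lay in cells with 1, 2 to 4, 5 to 9 and 10 or more of them; the last class held 74.5% for Rsad2 in the Listeria library and 0 for Cmpk2.

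Cmpk2 was spread thinly. It had 447 UMIs in 370 naive cells (5.80%, 5.24 to 6.41%) and 340 in 284 Listeria cells (5.87%, 5.22 to 6.57%), and after thinning 2.29% and 2.31% of cells had 1. A single UMI was found in 324 of the naive and 244 of the Listeria positive cells. Only 3 naive cells and 1 Listeria cell reached 5 UMIs, and the highest values were 6 and 5. No cell reached the 10 UMIs that defined a high Rsad2 cell, and the exact intervals of these shares of 0 end at 0.0578% and 0.0762% of cells. The Fano factor, the variance of UMIs over cells divided by their mean, was 10.6 (naive) and 50.5 (Listeria) for Rsad2 but 1.503 and 1.39 for Cmpk2. A fixed limit of 10 UMIs and the Fano factor can both depend on a gene's level, and Cmpk2 had fewer UMIs than Rsad2. The part of level in this contrast was not tested.

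Scaled to counts per 1000000 UMIs of the kept cells (CPM), Rsad2 stood at 34.7 CPM (33.1 to 36.3) in naive and 89.8 CPM (86.8 to 92.8) in Listeria cells, and the log2 ratio of Listeria over naive was 1.37 (1.29 to 1.46). That ratio was the 10th highest of 8183 genes that reached 10 CPM in at least 1 library, of which 3.17% were over 1.5-fold higher and 3.47% over 1.5-fold lower in Listeria cells. Cmpk2 was at 8.80 CPM (8.01 to 9.66) and 8.66 CPM (7.76 to 9.63), with a log2 ratio of -0.02 (-0.23 to 0.18). The neighbours thus parted between the libraries: the interval of Cmpk2 leaves out a 1.5-fold change in either direction. RNA outside cells held both genes too: in barcodes with 1 to 50 UMIs, Rsad2 was at 38.6 CPM (28.9 to 50.5) for naive and 73.1 CPM (63.6 to 83.5) for Listeria, and Cmpk2 at 8.02 CPM from 11 UMIs and 11.6 CPM from 34.

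Clustering gave 23 clusters, of which 19 could be named. HSC-like cells, the multipotent stem cells of the marrow, formed clusters 0, 1, 7 and 18, with 1589 naive cells (24.9%) and 1903 Listeria cells (39.3%). They held 45.2% of all naive and 85.2% of all Listeria Rsad2 UMIs, but 22.6% and 39.7% of the Cmpk2 UMIs, close to their share of cells. Clusters 0 and 1 held most naive HSC-like cells, with 839 and 672 of them. Cluster 7 held most Listeria HSC-like cells, with 1056 Listeria and only 26 naive cells, so that 97.6% of it came from 1 library. In cluster 7 the HSC markers were weaker: 10 of 16 counted as marking it, against 16 of 16 for cluster 1. None was among the 10 leading genes of either, which in cluster 7 include Cx3cl1 and Traf1. The name of cluster 7 is not firm: at clustering resolution 0.5 the cluster with some of the same leading genes (Cx3cl1, Epb41l2, Lrrfip1), of 30 naive and 1334 Listeria cells, was named megakaryocyte-like, and the HSC-like class lost it. What sets its cells apart and the library they came from cannot be told apart here.

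Cluster 7 held 2592 of the 3524 Listeria Rsad2 UMIs and 59 of the 75 high Listeria cells. Its Listeria cells stood at 353 CPM (339 to 366), with 14.0 UMIs per positive cell, while its 26 naive cells had 3 UMIs in all. Its high cells were not deep ones, with a median total of 6967 UMIs against 6595.5 over the Listeria cells of the cluster. Those 59 cells held 2306 Rsad2 UMIs, a median of 25 each.

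Cluster 1, whose leading genes were Meg3 and the stress and inflammatory genes Cxcl2, Hbegf and Ptgs2, had cells of both libraries and high Rsad2 in both. It stood at 137 CPM (126 to 147) from 651 UMIs in naive and at 174 CPM (155 to 194) from 316 UMIs in Listeria cells, a log2 ratio of 0.35 (0.15 to 0.54). An Rsad2 UMI was found in 22.6% of its naive cells (19.5 to 26.0%) and 22.4% of its Listeria cells (17.5 to 28.0%), and high cells were 19 of 672 and 8 of 263. Within this cluster the libraries were much nearer than over all cells. Cluster 0, HSC-like cells led by Nkx2-3, Hes1 and Nr4a1, was at 23.9 CPM (20.04 to 28.2) in naive and 24.6 CPM (19.4 to 30.7) in Listeria cells, with no high cell in either. Among HSC-like cells, Rsad2 thus differed more between clusters 0 and 1 than between the libraries within either.

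**Figure D2:**
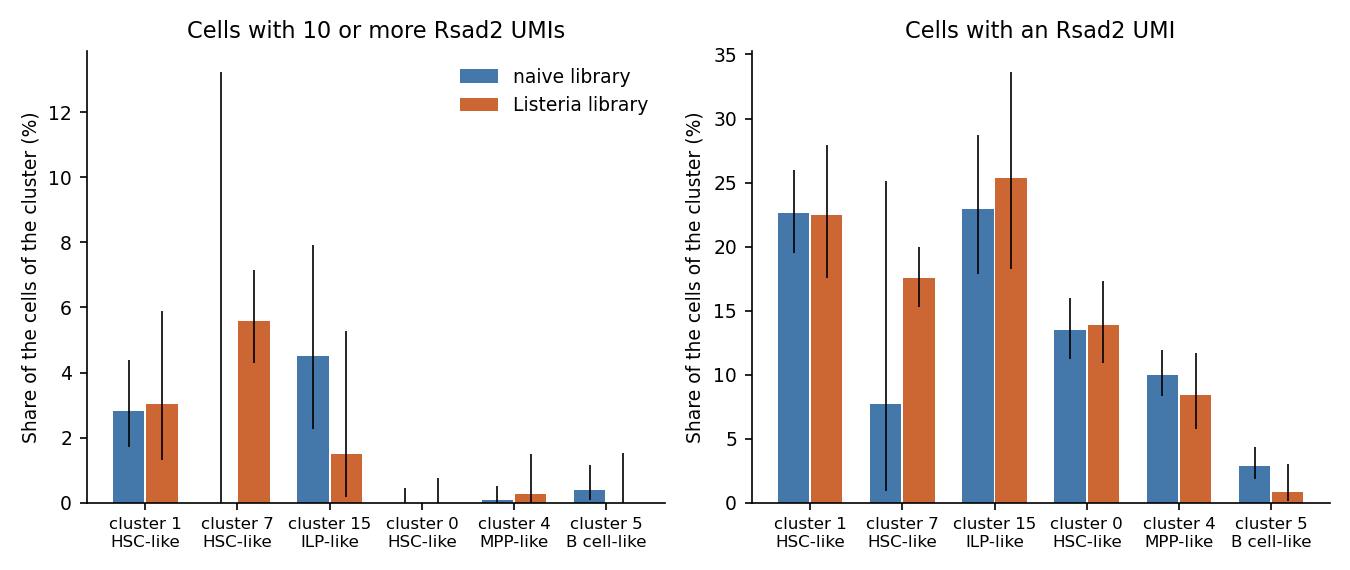
Bars give the share of cells with 10 or more Rsad2 UMIs (left) and with any (right) in 6 clusters picked for display after their values were seen, by library, with exact 95% intervals (ILP, innate lymphoid progenitor; MPP, multipotent progenitor). The shares of cluster 1 overlap between the libraries, cluster 7 has 59 high cells in the Listeria library, and cluster 0 has none in either.

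Over all HSC-like cells Rsad2 was at 72.6 CPM (67.6 to 77.8) in naive and 232 CPM (224 to 241) in Listeria cells, a log2 ratio of 1.68 (1.56 to 1.79), where 18.2% of 8037 genes were over 1.5-fold apart, 11.6% higher and 6.59% lower in Listeria cells. The share of positive cells was 17.0% in both libraries, with intervals of 15.2 to 18.9% and 15.4 to 18.8%. Without cluster 7 the HSC-like cells stood at 73.3 CPM (68.3 to 78.6) and 73.8 CPM (66.8 to 81.2), a log2 ratio of 0.01 (-0.17 to 0.18), where 7.06% of 8214 genes were over 1.5-fold apart, 5.82% higher and 1.24% lower. Over all kept cells, leaving out cluster 7 turned the ratio to -0.25 (-0.37 to -0.13), and leaving out the high cells gave 0.09 (-0.04 to 0.21). Both exclusions were chosen after the data were seen. High cells are defined by Rsad2 itself, so a smaller ratio without them follows from the choice and is only described. High cells held 74.5% of the Listeria Rsad2 UMIs, and at resolution 1 most of them lay in cluster 7, which the naive library almost lacked. At resolution 0.5 the HSC-like class no longer held the cluster of 30 naive and 1334 Listeria cells, yet its ratio was 2.30 (2.18 to 2.43). The ratio of 0.01 without a Listeria-dominated cluster is thus bound to resolution 1. Where the high cells fell at resolution 0.5 was not counted. Cmpk2 in HSC-like cells was at 9.22 CPM (7.51 to 11.2) and 10.4 CPM (8.75 to 12.4).

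Outside the HSC-like cells, Rsad2 was highest in cluster 15, innate lymphoid progenitor-like cells marked by Tcf7 and Zbtb16. It stood at 175 CPM (157 to 195) in 244 naive and 106 CPM (87.6 to 127) in 134 Listeria cells, with 11 and 2 high cells, a log2 ratio of -0.72 (-1.04 to -0.41). The same cells had the most Cmpk2, at 30.8 CPM (23.5 to 39.7) and 36.0 CPM (25.6 to 49.2), with a Cmpk2 UMI in 15.6% and 20.1% of cells. Cluster 15 came first for Cmpk2 and was among the 3 highest for Rsad2.

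With the libraries summed, the order of the 22 clusters of at least 50 cells began with cluster 7 at 346 CPM (333 to 359), then clusters 15 and 1 at 151 (137 to 165) and 147 (138 to 156), which did not differ beyond counting error in the sum. Within the libraries they did, in opposite directions: cluster 15 was above cluster 1 in naive cells, at 175 against 137 CPM, and below it in Listeria cells, at 106 against 174 CPM. A step down followed to cluster 10, multipotent progenitor-like, at 47.7 CPM (39.1 to 57.6). Below it the neighbours in the order overlapped in their intervals, from the neutrophil-like cluster 8 at 34.1 CPM through the multipotent progenitor-like cluster 4 at 22.0 CPM to the megakaryocyte-like cluster 14 at 8.17 CPM. Near the end stood the B cell-like clusters 5 and 11 at 7.29 and 6.34 CPM, and last came the unnamed clusters 17 and 9 at 5.92 CPM (0.717 to 21.4) and 1.37 CPM (0.166 to 4.96). For Cmpk2 the order began with cluster 15 at 32.7 CPM (26.6 to 39.8), and the next, cluster 8, was at 14.6 CPM (9.05 to 22.3). From there it fell without a step to the NK cell-like cluster 16, at 1.29 CPM from 1 UMI. Cluster 7, first for Rsad2, came 8th for Cmpk2 with 10.3 CPM (8.10 to 12.8).

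**Figure D3:**
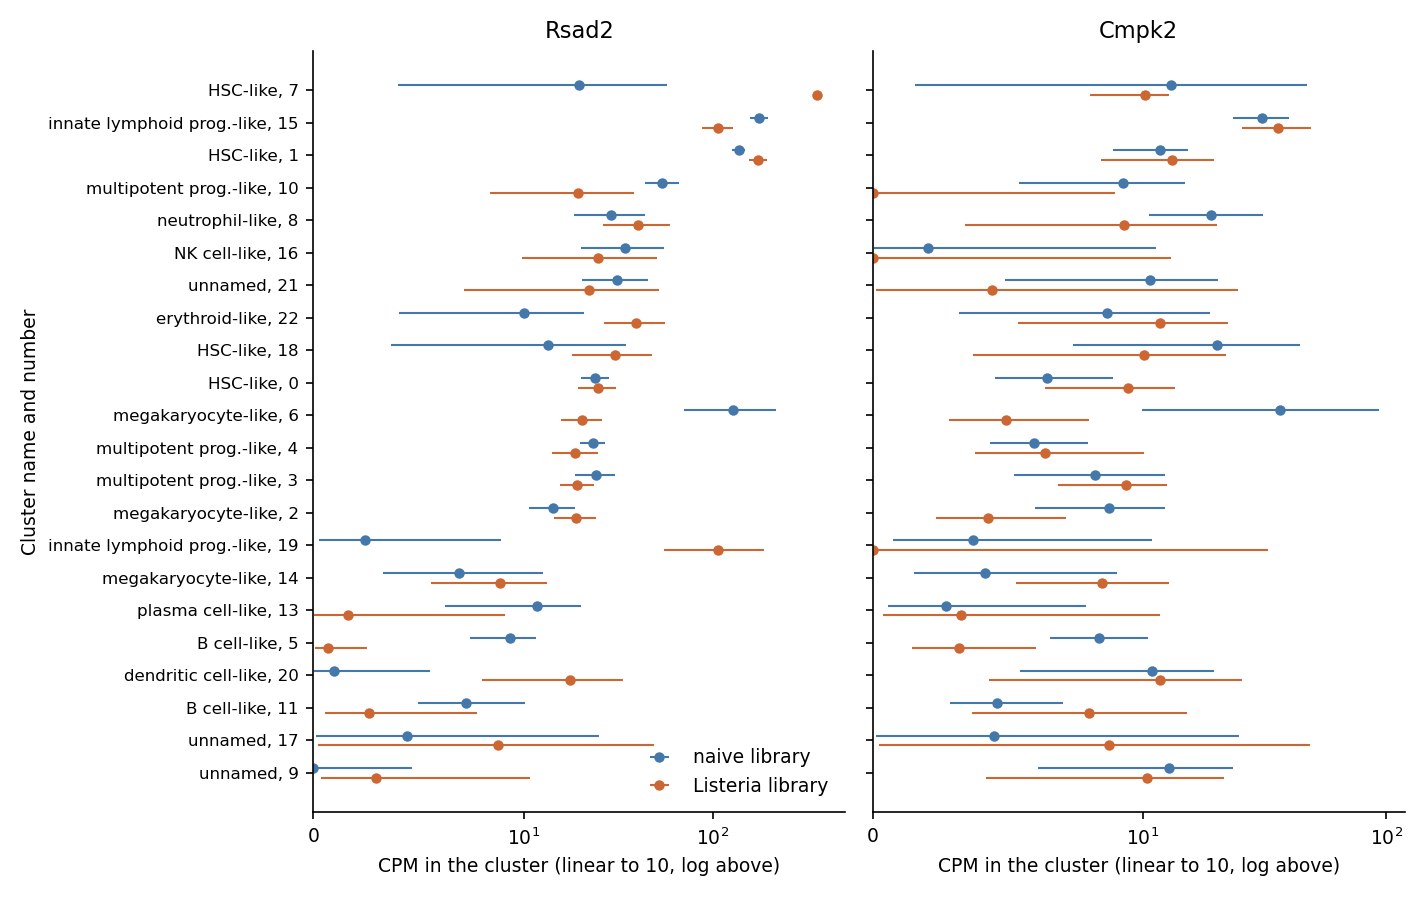
CPM of Rsad2 (left) and Cmpk2 (right) in each cluster of at least 50 cells, by library, as points with exact 95% intervals on an axis that is linear to 10 and logarithmic above; clusters are in the order of Rsad2 with the libraries summed. Rsad2 stands out in clusters 7, 15 and 1, and Cmpk2 in cluster 15.

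No class is known to lack these genes, so the B cell-like cells, low in Rsad2 here and numerous, serve as the low comparison. They were picked by that low value, so a higher Rsad2 share in HSC-like cells follows from the choice and is only described. An Rsad2 UMI was in 2.53% of 1346 naive and 1.31% of 382 Listeria B cell-like cells, although these were deeper than other cells, with a median of 9278 and 9706 UMIs. The 17.0% of HSC-like cells, at a median of 6471 and 6438 UMIs, stood well above that. For Cmpk2 the share in B cell-like cells was 6.17% and 4.71%, against 5.16% and 5.36% in HSC-like cells at their lower depth. Per UMI, Cmpk2 was at 7.10 CPM (5.75 to 8.67) and 4.56 CPM (2.70 to 7.21) in B cell-like cells, against 9.22 (7.51 to 11.2) and 10.4 (8.75 to 12.4) in HSC-like cells. The order of the shares and of the CPM thus differed in naive cells, and no order is read from the shares. Of the 4 high naive B cell-like cells, the 3 in cluster 5 had a median of 17098 total UMIs against 11018 over the cluster, and the 1 in cluster 11 had 14675 against 6916. No doublet caller was run, and the part of doublets in these cells was not tested.

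Megakaryocyte-like cells, precursors of platelets, held little Rsad2 and at like levels, 14.6 CPM (11.5 to 18.3) in naive and 16.5 CPM (14.0 to 19.4) in Listeria cells. In multipotent progenitor-like cells it was at 28.0 CPM (25.1 to 31.1) and 19.0 CPM (16.2 to 22.3). NK cell-like cells had 34.5 CPM from 17 UMIs and 24.7 CPM from 7, and neutrophil-like cells 29.1 CPM from 23 UMIs and 40.2 CPM from 26. In these classes the Rsad2 values of both libraries lay within 1.5-fold of each other or their intervals overlapped.

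Cells with Rsad2 had Cmpk2 more often. In the naive library 85 of 668 Rsad2-positive cells had a Cmpk2 UMI (12.7%, 10.3 to 15.5%) against 285 of 5707 negative ones (4.99%, 4.44 to 5.59%), a ratio of 2.55. In the Listeria library it was 77 of 580 (13.3%, 10.6 to 16.3%) against 207 of 4259 (4.86%, 4.23 to 5.55%), a ratio of 2.73. Deeper cells hold more of every gene, so the same ratio was taken for 11714 and 11650 genes with a UMI in at least 1% of cells. Their median was 1.05 (naive) and 1.01 (Listeria), 6.41% and 4.88% of them reached 1.5, and only 20 and 29 genes had a higher ratio than Cmpk2. With the partner genes thinned to 2500 UMIs per cell the ratio was 3.01 and 3.20, and 4.22% of 9909 and 4.12% of 9871 genes reached 1.5. Read the other way, 23.0% of naive and 27.1% of Listeria Cmpk2-positive cells had Rsad2, against 9.71% and 11.0% of negative ones. On that side 11.8% and 8.72% of genes reached a ratio of 1.5, and 5.67% and 6.12% after thinning, when the ratio of Rsad2 was 3.60 and 3.64. Most cells with either gene lacked a UMI of the other.

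The overlap is given by cluster, without a test between them. In cluster 15 of the naive library, 26 of 38 Cmpk2-positive cells had Rsad2 (68.4%, 51.3 to 82.5%) against 30 of 206 negative ones (14.6%). In the Listeria cells of that cluster it was 11 of 27 (40.7%, 22.4 to 61.2%) against 23 of 107 (21.5%). Cluster 1 had 16 of 41 in the naive library (39.0%, 24.2 to 55.5%) and 9 of 16 in the other (56.3%, 29.9 to 80.2%), against 21.6% and 20.2%. Cluster 7 had 31 of 56 in the Listeria library (55.4%, 41.5 to 68.7%) against 154 of 1000 (15.4%). In naive HSC-like cells it was 20 of 82 (24.4%, 15.6 to 35.1%) against 250 of 1507 (16.6%). In that class, and in the Listeria cells of cluster 15, the intervals of positive and negative cells overlapped.

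Cmpk2 went up with the number of Rsad2 UMIs in a cell. Among naive cells with 0, 1, 2 to 4, 5 to 9 and 10 or more Rsad2 UMIs, Cmpk2 was found in 4.99%, 6.64%, 20.2%, 27.8% and 39.5%. For the Listeria library the shares were 4.86%, 6.92%, 15.7%, 24.3% and 33.3%. The last class stood at 101 CPM of Cmpk2 (72.2 to 139) in naive and 73.2 CPM (53.2 to 98.3) in Listeria cells, against 6.86 CPM (6.12 to 7.67) and 6.63 CPM (5.79 to 7.54) in cells without Rsad2. A cell with 1 Rsad2 UMI was close to a cell with 0, and the rise began at 2 to 4. Even so, only 15 of 38 naive and 25 of 75 Listeria high cells had a Cmpk2 UMI.

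Isg15 was found in more of the high cells than Cmpk2. It was also the gene with more UMIs, at 20.1 against 8.80 CPM in all naive and 15.7 against 8.66 CPM in all Listeria cells. The shares of the 2 genes therefore do not rank how closely each went with Rsad2. By the same classes of Rsad2 UMIs it was found in 7.87%, 13.3%, 33.1%, 27 of 54 and 78.9% of naive cells and in 5.12%, 15.3%, 25.6%, 32.4% and 77.3% of Listeria cells. Ifit1 went from 1.94% at 0 to 65.8% at 10 or more Rsad2 UMIs in naive and from 1.85% to 61.3% in Listeria cells. At least 1 of Isg15 and Ifit1 was present in 33 of 38 naive and 67 of 75 Listeria high cells, against 9.29% and 6.69% of cells with 0 Rsad2 UMIs. All 3 of Isg15, Ifit1 and Cmpk2 were present in 11 naive and 16 Listeria high cells, but in 3 of 5707 and 1 of 4259 cells without Rsad2.

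The rest of the Ifit family was seldom seen in HSC-like cells. Among the 19 naive and 67 Listeria high cells of that class, Ifit2 was found in 5.26% (0.133 to 26.0%) and 10.4% (4.30 to 20.3%), against 3.41% and 3.36% of HSC-like cells with 0 Rsad2 UMIs. In the Listeria library this was 24.6 against 5.43 CPM of Ifit2, so it was higher in high cells too, though in few of them. Ifit3 was found in 0 of 19 and 0 of 67, with exact intervals that end at 17.6% and 5.36%, but at 0 Rsad2 UMIs it was in only 0.531% and 0.380% of cells, so no difference could be seen. Irf7, a factor that amplifies the interferon response, was in 0 of 19 and 4 of 67, Mx1, an antiviral GTPase, in 0 and 1, and Usp18, a brake on the interferon receptor, in 0 and 0. At 0 Rsad2 UMIs, Irf7 was in 7.05% of naive and 4.37% of Listeria HSC-like cells. Mx1 was in 0.834% and 0.380% of them, and Usp18 in 1.21% and 0.823%. Most high HSC-like cells thus had Isg15 or Ifit1. They mostly lacked Irf7, Mx1 and Usp18, but so did most cells without Rsad2, and that lack does not set them apart. For genes this scarce the 19 naive cells leave wide bounds.

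**Figure D4:**
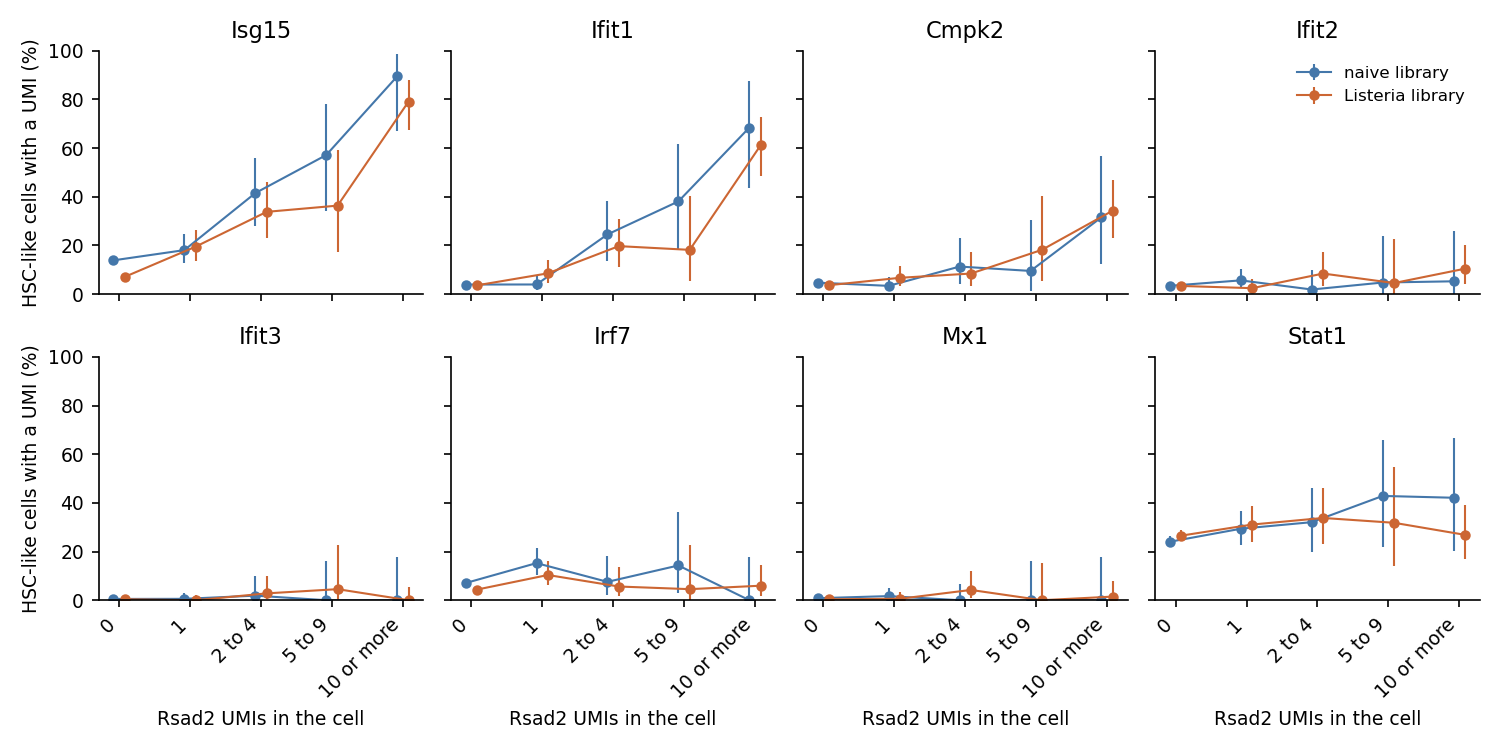
Share of HSC-like cells with a UMI of each of 8 partner genes, by the number of Rsad2 UMIs in the cell and by library, with exact 95% intervals. Isg15 and Ifit1 climb to over 60% in the last class, Cmpk2 to 31.6% in naive and 34.3% in Listeria cells, and Ifit2, Ifit3, Irf7 and Mx1 stay at or below 15.3%.

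Cluster 15 differed in this. Of its 11 high naive cells, 8 had Ifit2 (72.7%, 39.0 to 94.0%), 4 had Irf7, 3 had Mx1, and Ifit3 and Ifit3b were each in 2. In its 188 naive cells without Rsad2, Ifit2 was in 5.85%, Irf7 in 4.79% and Mx1 in 0. Isg15 was in 9 and Ifit1 in 7 of the 11, as in the HSC-like cells, and Cmpk2 was in 5. The interval of its Ifit2 share does not overlap that of the high HSC-like cells of either library. The Listeria library had only 2 high cells there, too few for a value.

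The genes that most marked Rsad2-positive HSC-like cells, by the ratio of detection shares after thinning, were led by interferon-induced chemokine and antiviral genes in both libraries. In the naive library the 8 with the highest ratio were the chemokine Ccl5 (6.35), Ifit1 (5.80), the antiviral Oasl1 (4.58), Cep126 (3.60), the chaperone-like Rtp4 (2.96), Ggnbp1 (2.79), Zfp180 (2.71) and Parvb (2.65), where 4.84% of 8278 genes reached 1.5. In the Listeria library they were Oasl1 (13.7), Ccl5 (9.06), Ifit1 (8.18), the cytokine Lif (5.65), Isg15 (5.04), the chemokine Cxcl10 (4.80), Rtp4 (4.34) and Cmpk2 (4.24), where 3.83% of 8179 did. Ccl5, Ifit1, Oasl1 and Rtp4 were among the 8 in both, and with 20 genes per library 7 were shared, Cxcl10, Isg15 and Lif in addition. These ratios rest on few cells: 14 Rsad2-positive naive cells had Cep126.

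In high cells several of these interferon-induced genes were present in most cells of either library, but Lif and Cmpk2 were not. Such shares also depend on a gene's level, and the CPM of Cmpk2 rose with Rsad2 as given above. Lif was in 6 of 19 naive high cells of cluster 1, and in 3 of 8 and 23 of 59 Listeria high cells of clusters 1 and 7. Cmpk2 was in 6 of 19, 2 of 8 and 21 of 59 of the same cells. Oasl1 was in 16 of 19 naive (84.2%, 60.4 to 96.6%) and 53 of 67 Listeria HSC-like high cells (79.1%, 67.4 to 88.1%), against 4.93% and 2.60% of cells with 0 Rsad2 UMIs. Ccl5 was in 73.7% and 88.1% against 3.94% and 5.38%, and Cxcl10 in 94.7% and 88.1% against 18.3% and 11.9%. Ifih1, which encodes the RNA sensor MDA5, was in 89.5% and 91.0% against 24.6% and 21.0%. For Oasl1, Ccl5, Cxcl10 and Ifih1 the intervals of the high cells overlapped between the libraries. By cluster, in the Listeria library, Oasl1 was in 6 of 8 high cells of cluster 1 and 47 of 59 of cluster 7, Isg15 in 5 of 8 and 48 of 59, and Ifit1 in 5 of 8 and 36 of 59. Ccl5 was in 5 of 8 and 54 of 59, with a median of 1 and 12 UMIs, and Ifih1 in 6 of 8 and 55 of 59, with a median of 1 and 6. The 8 cells of cluster 1 are too few to say whether the clusters differ.

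**Figure D5:**
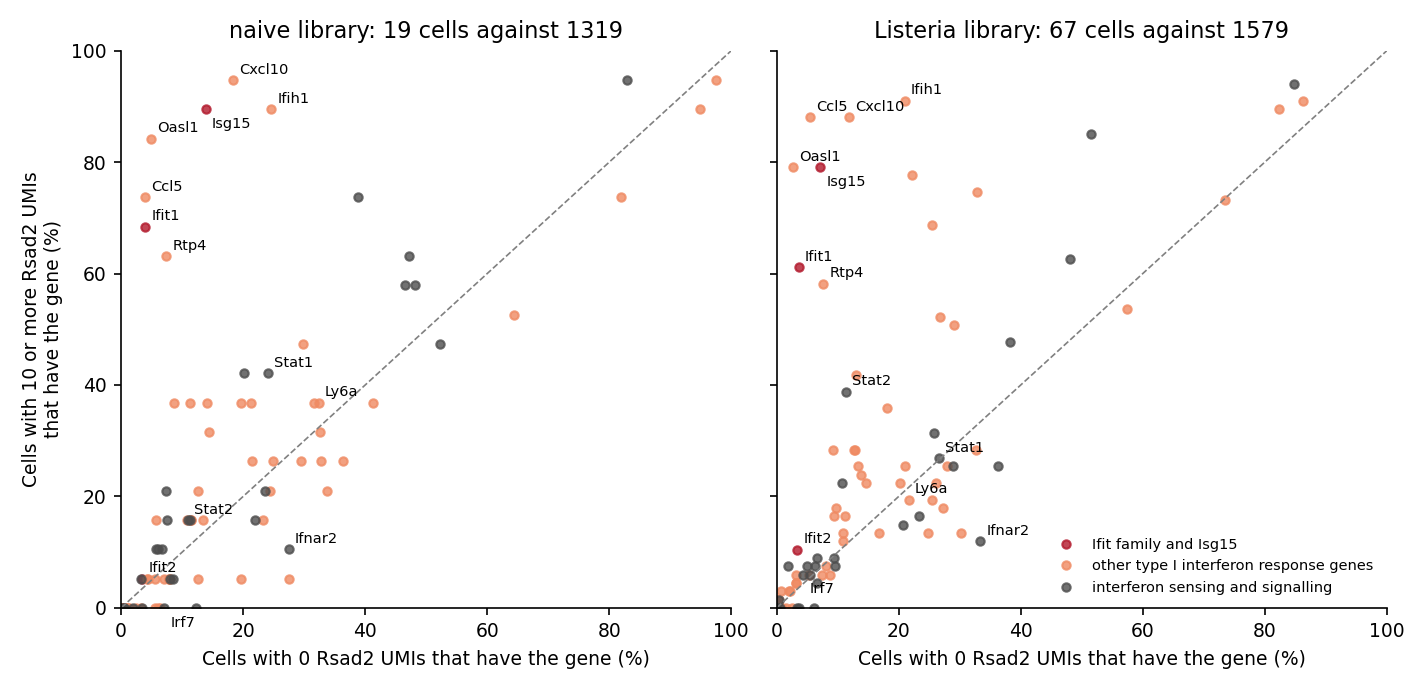
Each point is a gene of the Ifit family with Isg15, of the other interferon response genes or of interferon sensing and signalling, placed by the share of HSC-like cells with a UMI of it among cells with 0 Rsad2 UMIs (x axis) and with 10 or more (y axis), naive left and Listeria right; the dashed line marks equal shares. Oasl1, Ccl5, Ifit1, Isg15, Cxcl10, Ifih1 and Rtp4 lie far above the line in both panels; Ifnar2 lies below it in both, and Ifit2 lies low in the panels, above the line at 10.4% against 3.36% in Listeria cells.

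Gene lists gave the wider pattern in these high cells, after thinning and relative to HSC-like cells with 0 Rsad2 UMIs. Over all genes with a UMI in at least 2% of cells (8278 naive, 8179 Listeria), 19.7% were over 1.5-fold more often detected in naive and 10.3% in Listeria high cells, and 43.7% and 35.9% less often, with a median ratio of 0.80 and 0.84. Of 45 and 42 other type I interferon response genes, 16 and 20 were more and 18 and 8 less often detected, with a median of 0.91 and 1.24. A larger part of this list than of all genes was thus more often detected in both libraries. Its medians lay above the 0.80 and 0.84 of all genes, by more in the Listeria library. Not every member was raised as Oasl1, Ccl5 and Cxcl10 were, since 18 and 8 were less often detected. Of 22 and 21 genes of interferon sensing and signalling, 7 and 6 were more and 6 and 8 less often detected. With 19 naive high cells, naive calls of scarce genes turn on single cells in every list. Tyk2, Irf5 and Ikbke counted as more often detected there at 5.26% of cells, and Irf7, Tmem173 and Mb21d1 as less often at 0. The receptor subunits Ifnar1 and Ifnar2 were less often detected in both libraries, as were 43.7% and 35.9% of all genes. Without thinning, Ifnar2 was in 10.5% and 11.9% of high cells against 27.4% and 33.4% at 0 Rsad2 UMIs, but in cluster 1 of the Listeria library it was in 3 of 8 high cells against 14.7%.

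The enzymes and partners of viperin and CMPK2, such as the CTP synthases, the kinase Cmpk1 and iron-sulphur cluster factors, were at or below the level of all genes in high cells. Of 19 and 21 measured, 4 and 1 were more and 7 and 10 less often detected, with a median of 0.79 and 0.67. Ciapin1, an iron-sulphur assembly factor, was past the fold in both after thinning, but without it the shares were 10.5% against 8.26% and 16.4% against 11.0%, under 1.5-fold, and 2 naive high cells had it. Of 23 AP-1 and immediate early genes, which respond within minutes to stress, 2 were more and 6 less often detected in each library. Atf3 was higher in both, at 100% and 88.1% of high cells against 72.4% and 50.8%, while Fos was lower in both, at 26.3% and 11.9% against 72.1% and 41.2%. Cluster 1 has Atf3 among its 10 leading genes and holds all 19 naive high cells of the class. Atf3 is not given within clusters, so its difference is not told apart from that between clusters. For Fos the values within clusters are given too. Fos was in 26.3% of high cells against 61.7% in naive cluster 1, but in the Listeria library in 4 of 8 against 58.3% in cluster 1 and 6.78% against 10.8% in cluster 7.

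Between the libraries each list had a small number of members past the fold in all kept cells, and no list is ranked above another. Over all 8183 genes 6.64% were over 1.5-fold apart, and the median log2 ratio was 0.07. Of the 3 genes of the Ifit family and Isg15 with at least 10 CPM, Ifit1 was higher and Ifit2 lower past the fold. Isg15 was at 20.1 CPM in naive and 15.7 CPM in Listeria cells (log2 -0.35), Ifit1 at 7.43 and 11.2 CPM (0.60) and Ifit2 at 11.6 and 7.44 CPM (-0.64). Ifit3, Ifit3b, Ifit1bl1 and Ifit1bl2 were under 2 CPM in both libraries. Of 40 other interferon response genes with at least 10 CPM, Gbp3 (0.61) and Ifih1 (0.68) were higher and Ifi27l2a (58.9 against 20.9 CPM) was lower, with a median of 0.06. Of 22 sensing and signalling genes 0 were higher and Ifngr2 (-0.69), Irf7 (-0.62) and Irf8 (-1.22) were lower. Of 22 enzymes and partners only Dck (-0.93), a deoxycytidine kinase, was past the fold, and of 23 AP-1 and immediate early genes Atf3, Cdkn1a (-0.74), Jund and Klf4 (-0.87) were lower. Within HSC-like cells 17 of the 23 AP-1 and immediate early genes were lower and 0 higher, where 6.59% and 11.6% of all genes were. Without cluster 7 it was 3 and 2, where 1.24% and 5.82% were. Of 42 other interferon response genes 5 were higher and 3 lower in HSC-like cells, of 22 sensing genes 3 and 4, and of 21 enzymes and partners 5 and 1.

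Over the 22 clusters of at least 50 cells, the genes whose level was most like that of Rsad2, by Pearson r of log2(CPM + 10) among 7952 genes, were Oasl1 (0.88), Isg15 (0.86), the membrane-bound chemokine Cx3cl1 (0.79), Zswim4 (0.78), Ifih1 (0.74) and the autophagy gene Vmp1 (0.74). Ifit1, just under the level limit, had 0.84. Cmpk2, also under that limit at 8.74 CPM, had 0.46, behind them all. It was ahead of the other Ifit genes, which were under the limit too: Ifit3b (0.40), Ifit2 (0.28), Ifit3 (0.20), Ifit1bl2 (0.11) and Ifit1bl1 (-0.04). The genes most like Cmpk2 were Tiam1 (0.67), Gk (0.67), Zfp263 (0.59), Dnah8 (0.59), Pisd (0.59) and the lipid droplet gene Plin2 (0.58). These are descriptions over clusters that share libraries and depth, and no gene is among the 6 for both.

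The high HSC-like cells carried HSC markers, and markers of some other classes as well. Of 16 HSC markers, 14 were present in the 19 naive and 16 in the 67 Listeria high cells, with a median summed level of 12.2 and 13.9 per 10000 UMIs, against 18.8 and 14.5 in HSC-like cells with 0 Rsad2 UMIs. Of 10 multipotent progenitor markers 9 and 10 were present, at 965 and 955 CPM against 1294 and 1330 CPM at 0 Rsad2 UMIs. Of 10 megakaryocyte markers, some of them shared with HSCs, 9 were present in each set, with summed levels of 3.27 to 24.7 and 3.71 to 32.1 per 10000. Together they stood at 1181 and 1636 CPM, against 1007 and 1074 CPM at 0 Rsad2 UMIs. The HSC markers of the high cells summed to 1346 and 1471 CPM, against 1962 and 1599 CPM at 0 Rsad2 UMIs. In the Listeria high cells the megakaryocyte sum was thus higher than the HSC sum, which adds to the doubt on the name of cluster 7. Of the T cell markers 9 of 10 had 0 UMIs in either set, the Cd3 genes among them. Of 10 B cell markers 4 and 2 were present, with Pax5 at 0 in both sets. Innate lymphoid progenitor markers were present for 4 and 6 of 8, with summed levels of 387 and 229 CPM against 206 and 156 CPM at 0 Rsad2 UMIs. Dendritic cell markers were present for 4 and 6 of 9, at 565.0 and 597 CPM against 319 and 426 CPM, and macrophage markers for 4 and 3 of 10, at 203 and 199 CPM against 198 and 146 CPM, with Csf1r, C1qa and C1qb at 0 in both sets. Plasmacytoid dendritic markers were present for 2 of 7 in each set, at 171 and 216 CPM against 135 and 210 CPM, with Siglech at 0. The part of these markers in the Rsad2 values was not tested. Erythroid markers had a median of 3.64 and 3.81 per 10000, and 1 naive high cell stood at 1665 per 10000.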

How the data were processed

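Marrow HSCs were profiled by droplet-based 3' RNA sequencing of single cells, 1 library per group, per the labels. The deposited files hold UMI counts for each gene in each barcode, whole numbers that the authors did not scale; the submitters' processing notes name Cell Ranger 3.0.2 and the build mm10. The libraries held 64619150 naive and 43895966 Listeria UMIs, which sets the counting intervals. The genes and the lists were chosen with earlier results of these data known.

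Cells were kept at 2500 UMIs, 500 genes and 10% mitochondrial UMIs. They were clustered with scanpy 1.11.5 (Python 3.11.15, igraph 0.11.9; 2000 variable genes, 30 principal components, 15 neighbours, Leiden resolution 1), leaving out 65 genes, the pair and the interferon response lists. Clusters were named from 17 marker lists: a marker counted when 10% or more of a cluster's cells had a UMI and its CPM reached 2 times the sum of 5 and the lower quartile over clusters, and a class needed at least 3 and at least 50% of its markers and no other class leading the top 10 genes. Cluster names rebuilt in this way may differ from the study's. Doublets were not removed. As an alternative, the 5% deepest cells were left out.

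Summed counts were scaled to 1e6 as CPM. CPM intervals are exact Poisson, shares Clopper-Pearson, and log2 ratios use the exact binomial split (scipy 1.17.1). No test was made with 1 library per group. Named genes were the pair, Isg15 and the Ifit genes, the neighbours on the chromosome, the 6 genes most like each member, the 8 leading partners per library and up to 4 members of each list. List members past the fold, Fos, Atf3, Ciapin1, Ifnar1, Ifnar2, Mx1, Usp18 and Irf7 were added after values were seen. Ratio intervals were tested on simulated counts of 3000 genes and covered the simulated ratio in 98% of 200 genes planted at 2-fold and in 95.8% of 2800 others. Alternatives covered cell limits, thinning, factors from DESeq2 1.42.0 and from TMM in edgeR 4.0.16 (R 4.3.3), equal weight per cell, free RNA, clustering and the highest cells. Promoter sequences are from RefSeq on GRCm38.p6; gene positions are from GENCODE vM21.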

Additional observations from a re-analysis of the deposited data

Results flagged for a closer look

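The difference in Rsad2 between the libraries went opposite ways in different classes of cells. The log2 ratio of Listeria over naive was 1.68 in HSC-like cells, 1.96 (0.74 to 3.39) in erythroid-like cells, from 7 naive and 30 Listeria UMIs, and 4.15 (1.29 to 9.60) in dendritic cell-like cells, from 1 and 9 UMIs. It was -0.55 (-0.84 to -0.28) in multipotent progenitor-like cells, -2.77 (-4.42 to -1.51) in B cell-like cells, from 117 and 5 UMIs, and -2.84 (-8.25 to -0.11) in plasma cell-like cells, from 13 and 1 UMIs. The difference between the classes was not tested, since each group has 1 library. In the erythroid-like cells 24 of the 30 Listeria UMIs lay in 1 cell, as did 7 of the 9 in the dendritic cell-like cells, and in the B cell-like cells 4 naive high cells held 47 and 13 UMIs in clusters 5 and 11.

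Rsad2 and Cmpk2 were also found outside the kept cells. In barcodes with 1 to 50 UMIs, Rsad2 stood at 38.6 CPM for naive and 73.1 CPM for Listeria, near the 34.7 and 89.8 CPM of the kept cells, and Cmpk2 at 8.02 and 11.6 CPM, near their 8.80 and 8.66 CPM.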

How the results depend on the processing

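The log2 ratio of Rsad2 over all kept cells, 1.37, stayed between 1.32 and 1.44 under 9 alternatives. It was 1.24 without the 1% of positive cells with most of its UMIs and 3.62 after subtraction of free RNA. With 2 alternatives chosen after seeing the data, it was 0.0854 without high cells and -0.25 without cluster 7. In HSC-like cells, 1.68 stayed between 1.60 and 1.74 under 10 alternatives; it was 2.31 after subtraction of free RNA, 1.51 when all genes were clustered, 2.30 at resolution 0.5, 0.00875 without clusters over 90% from 1 library, and -0.0531 without high cells. Cmpk2 stayed between -0.08 and 0.01 under 11 alternatives and was 1.19 after subtraction of free RNA. That subtraction gave free RNA as 73.5% of the UMIs of naive and 17.4% of Listeria cells; the first is too large to be a usable estimate, so its values correct nothing. With both genes thinned, the Cmpk2 detection ratio was 3.99 in naive and 4.25 in Listeria cells, and without high cells it was 2.12 in Listeria cells. All alternatives without high cells were chosen after the data were seen. Beyond what each alternative leaves out, the cause was not tested. No paired analysis was possible because each group has 1 library. Depth limits Cmpk2, Ifit3 and Mx1, which most cells hold at 0 or 1 UMI.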
